A study of Rattus norvegicus with 13 samples.

Results

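The 10 genes described here are 4 target genes of the Hippo pathway's nuclear effectors (Ccn1, Ccn2, Amotl2 and Ajuba) and 6 components of the pathway itself (Yap1, Wwtr1, Tead1, Lats1, Lats2 and Vgll4). They were taken by name from tables that list 25600 names at 2 months and 38600 names at 6 and 8 months, and all 10 are listed at every time. Bulk RNA was measured in 13 libraries of rat hearts. Hearts labelled ST (sonogenetic) carried AAV2/9-cTnT-MscL-G22S-mCherry, a viral vector in which the cardiac troponin T promoter, active in cardiomyocytes, drives MscL-G22S, a mutant of a bacterial mechanosensitive channel, and the vector's name also carries the red reporter mCherry. The WT hearts had no treatment, and no empty-vector group was analysed here. The groups were ST and WT hearts at 2 months (2 libraries each), ST and WT hearts at 6 months (3 each) and ST hearts at 8 months (3). No WT library of 8 months was analysed here, so ST hearts at 8 months were set against ST and WT hearts at 6 months. The labels do not say whether months count age or time since the virus, nor whether ultrasound was given.

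The Hippo pathway is a kinase cascade in which the MST kinases activate the LATS kinases, which phosphorylate the coactivators YAP (Yap1) and TAZ (Wwtr1) and so keep them out of the nucleus. Unphosphorylated YAP and TAZ bind the TEAD transcription factors and switch on genes such as Ccn1 and Ccn2, while Vgll4 competes with them for TEAD. The pathway responds to cell contact and mechanical tension, and in the heart it is best known for restraining cardiomyocyte proliferation. Several of its outputs feed back on it: Lats2 and Amotl2 are themselves induced by YAP, and both restrain it. RNA levels do not show the phosphorylation or the place of YAP and TAZ.

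Library totals were 6539312 to 11296869 counts at 2 months, 6715215 to 8485537 at 6 months and 4696160 to 5573022 at 8 months. Mitochondrial genes held 14.8 to 18.1% of the counts in the 2-month libraries and 0% in the later ones, so these totals are unlike quantities. The transgene row had 127 and 94 counts in ST hearts at 2 months, 767 to 1667 at 6 months and 610 to 1003 at 8 months. It had 0 counts in each of the 5 WT libraries. The 3 counts that a 0 allows stand there for 0.345 to 0.459 CPM, a gene's count scaled to a common library total. At 2 months a separate mCherry row had 252 and 220 counts in ST hearts and 1 and 0 counts in WT hearts. The tables of 6 and 8 months list no mCherry row, so transgene counts are not compared between the 2-month and later tables. Levels are CPM after TMM scaling, which corrects for library size and composition. They were scaled within the 2-month table and jointly over the tables of 6 and 8 months, and are not compared across that divide or between genes, since they are not per length. Fold changes are log2 values from edgeR's quasi-likelihood test over all genes, and a gene counts as called at a Benjamini-Hochberg adjusted p under 0.05. In bulk heart RNA, fewer cells of a type and less RNA per cell cannot be told apart.

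The promoters of the 4 targets are shown because at 6 months Ccn1 and Ccn2 differed between ST and WT hearts whereas Amotl2 and Ajuba did not pass the test, and because each of the 4 holds the core of the TEAD motif. RefSeq's rat assembly GRCr8 gave promoter windows, from 250 bases before the start site to 50 after it, for 8 of the 10 genes; Tead1 and Lats2 had no entry. GGAATG, the core TEAD motif, was searched on both strands. Capitals mark its matches, and all sequences read 5′ to 3′ on the gene's strand. For Ccn1 and Ccn2 the 250 bases before the start are printed (Ccn1 chr2:237225690-237225939, minus strand; Ccn2 chr1:22624615-22624864, minus strand). For Amotl2 (chr8:112182523-112182582, plus strand) and Ajuba (chr15:32000246-32000292, minus strand) only the stretch around the match is shown.
Ccn1: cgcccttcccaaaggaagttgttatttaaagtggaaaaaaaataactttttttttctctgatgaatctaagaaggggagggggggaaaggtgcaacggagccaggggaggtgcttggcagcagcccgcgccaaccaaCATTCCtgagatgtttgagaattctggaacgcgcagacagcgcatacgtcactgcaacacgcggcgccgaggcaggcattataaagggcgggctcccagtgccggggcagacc
Ccn2: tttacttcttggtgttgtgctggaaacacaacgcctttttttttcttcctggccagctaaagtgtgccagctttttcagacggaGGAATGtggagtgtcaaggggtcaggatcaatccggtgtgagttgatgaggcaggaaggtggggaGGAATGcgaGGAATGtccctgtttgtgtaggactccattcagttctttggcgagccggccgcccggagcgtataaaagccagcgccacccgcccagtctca
Amotl2: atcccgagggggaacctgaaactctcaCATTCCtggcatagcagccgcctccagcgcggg
Ajuba: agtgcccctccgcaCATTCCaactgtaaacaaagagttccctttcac

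Ccn2 held 3 matches, starting 166, 101 and 92 bases before its start. Ccn1 held 1 match at 113 bases, Amotl2 1 at 76 bases and Ajuba 1 at 236 bases, all on the opposite strand. Among the components, Yap1 held 1 match at 116 bases, and 1 of the 3 listed starts of Vgll4 held 2. Wwtr1 and Lats1 held none in this window. Of 33465 rat promoters of this length, 14.2% held at least 1 match, 1.24% at least 2 and 0.0956% at least 3. The CArG box, the site of serum response factor, matched no promoter listed for these genes and 1.64% of all promoters. A match is a stretch of letters and not a measured binding site.

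At 6 months, both CCN genes stood far higher in ST than in WT hearts while the 2 scaffold targets did not, and 3 of the 6 components differed. Ccn1 and Ccn2 encode matricellular proteins, secreted into the matrix, that act on cells through integrins and are widely used readouts of YAP activity. Of the 10 genes, 4 rose (Ccn1, Ccn2, Tead1 and Lats2) and 1 fell (Vgll4). Over the 13253 genes tested, 19.9% rose and 20.1% fell, so a call at this time was common among all genes. With scaling by library size alone, 1731 genes were higher and 3714 lower, in place of 2643 and 2662, and the median log2 fold change over the genes tested shifted by -0.11. Under that scaling the same 5 of these 10 genes were called, in the same directions.

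Ccn1 had 108, 150.0 and 128 CPM in ST hearts at 6 months, from 703, 1221 and 980 counts. WT hearts had 19.8, 18.8 and 19.2 CPM, from 145, 146 and 144 counts. Every ST library lay far above every WT library, and the WT libraries differed little among themselves. The means were 129 ± 20.8 CPM in ST and 19.3 ± 0.498 CPM in WT (SD, n = 3 each), a log2 fold change of 2.75 (SE 0.119, adjusted p = 1.09e-08, edgeR). The fold, 6.71, was larger than that of 99.4% of the genes tested.

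Ccn2 had 103, 131 and 94.3 CPM in ST hearts against 49.8, 44.9 and 62.0 CPM in WT hearts at 6 months. The groups did not overlap, and the WT libraries were spread more widely than for Ccn1. Ccn2 rose by 1.07 on the log2 scale (SE 0.135, adjusted p = 7.89e-05, edgeR), a 2.10-fold change. The fitted change of Ccn1 was the larger one, and the ratio of Ccn1 to Ccn2 CPM was 1.06, 1.14 and 1.36 in ST hearts against 0.397, 0.418 and 0.310 in WT hearts. The ratios did not overlap; the exact two-sided permutation test gave p = 0.1, the smallest that 3 against 3 libraries allow (adjusted p = 0.15 over the 6 ratio tests).

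Amotl2, an angiomotin-family scaffold that binds YAP at cell junctions, had 97.6, 111 and 94.5 CPM in ST hearts and 108, 94.8 and 102 CPM in WT hearts at 6 months. The libraries of both groups interleaved, with a log2 fold change of -0.00 (SE 0.0794, adjusted p = 0.985, edgeR). Ajuba, a LIM-domain protein that binds and inhibits LATS, had 10.4 to 12.3 CPM in ST hearts and 12.8 to 13.1 CPM in WT hearts. Each ST library was below each WT library, but the log2 fold change of -0.16 (SE 0.122) was not called (adjusted p = 0.333, edgeR).

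**Figure D1:**
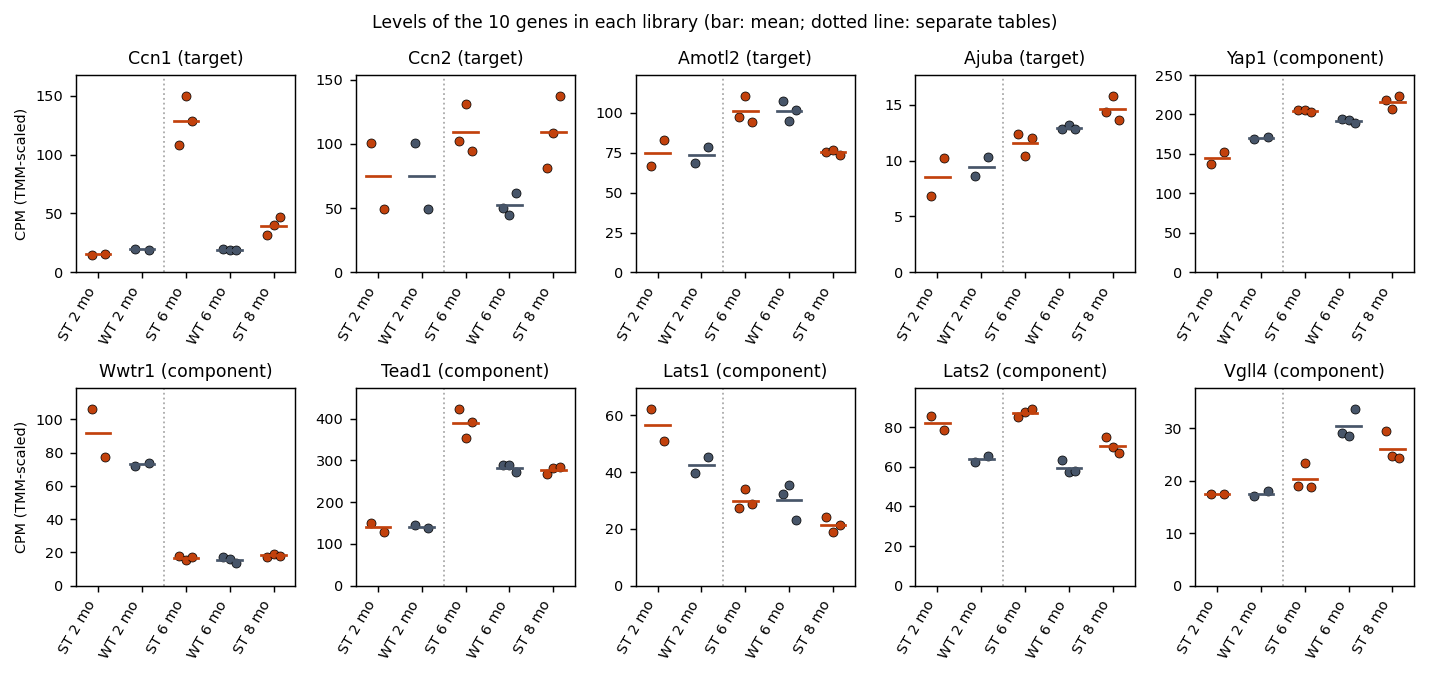
Level of each of the 10 genes in each library (CPM, TMM-scaled; points are libraries, bars are group means, n = 2 a group at 2 months and 3 a group later); the dotted line divides tables that are not compared with each other. Ccn1 shows 108 to 150.0 CPM in ST hearts at 6 months, against 18.8 to 19.8 CPM in WT hearts, and 31.5 to 47.4 CPM in ST hearts at 8 months.

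The coactivators themselves were nearly level at 6 months. Yap1 had 206, 206 and 203 CPM in ST hearts against 194, 193 and 189 CPM in WT hearts, a log2 fold change of 0.10 that was not called (SE 0.0601, adjusted p = 0.225, edgeR). Wwtr1 had 15.2 to 17.9 CPM in ST hearts and 13.9 to 17.1 CPM in WT hearts (log2 fold change 0.10, SE 0.119, adjusted p = 0.54). Both values are -0.02 when scaled by library size alone, so the direction of neither is settled.

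Tead1, the DNA-binding partner of YAP and TAZ, had 423, 353 and 392 CPM in ST hearts at 6 months, against 288, 289.5 and 271 CPM in WT hearts. It rose by 0.46 on the log2 scale (SE 0.0758, adjusted p = 0.000513, edgeR), with every ST library above every WT library. Vgll4, which displaces YAP from TEAD, had 19.0, 23.3 and 18.8 CPM in ST hearts against 29.1, 28.5 and 33.6 CPM in WT hearts. It fell by 0.57 on the log2 scale (SE 0.115, adjusted p = 0.00223), again without overlap.

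Of the LATS kinases, Lats2 was called and Lats1 was not. Lats2 had 85.2, 87.6 and 89.2 CPM in ST hearts against 63.2, 57.2 and 57.8 CPM in WT hearts at 6 months, a rise of 0.56 on the log2 scale (SE 0.0705, adjusted p = 7.62e-05, edgeR). Lats1 had 27.3, 34.0 and 28.8 CPM in ST hearts and 32.5, 35.5 and 23.1 CPM in WT hearts, overlapping throughout (log2 fold change -0.01, SE 0.146, adjusted p = 0.968). The ratio of Lats2 to Lats1 CPM averaged 2.93 ± 0.311 in ST and 2.02 ± 0.452 in WT hearts (SD, n = 3 each; exact permutation p = 0.1, the smallest possible, adjusted p = 0.15).

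At 2 months none of the 10 genes was called in edgeR's test, where 2.7% of 12121 genes were higher and 2.1% lower in ST hearts. DESeq2 and limma-voom also called none, and 3 genes had an unadjusted p under 0.05 (Wwtr1, Lats1 and Lats2, all higher in both ST libraries than in both WT libraries), where 18.6% of all genes tested had one. Lats1 had 62.3 and 51.1 CPM in ST hearts against 39.6 and 45.3 CPM in WT hearts (log2 fold change 0.42, SE 0.145, adjusted p = 0.112). Lats2 had 85.6 and 78.5 CPM in ST hearts against 62.3 and 65.5 CPM in WT (0.36, SE 0.129, adjusted p = 0.134). Wwtr1 had 106 and 77.2 CPM in ST hearts against 72.2 and 73.9 CPM in WT (0.33, SE 0.150, adjusted p = 0.245). Without the second ST library these 3 genes were called, with log2 fold changes of 0.54 for Wwtr1, 0.56 for Lats1 and 0.42 for Lats2 (adjusted p of 0.00351, 0.00368 and 0.0188), and the lone ST library was then taken to vary like the WT libraries. With all 5 groups in one fit, Lats2 was called at 0.37 (adjusted p = 0.015).

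Ccn1 had 14.8 and 15.9 CPM in ST hearts against 19.8 and 19.1 CPM in WT hearts at 2 months, lower in both ST libraries but not called (log2 fold change -0.35, SE 0.166, adjusted p = 0.277, edgeR). Ccn2 differed within each group rather than between them: it had 101 and 49.5 CPM in ST hearts and 101 and 49.5 CPM in WT hearts, the first replicate of each group being the high one (log2 fold change -0.00, SE 0.277). Its log2 fold change was -0.63 without the first ST library, 0.41 without the second, 0.61 without the first WT library and -0.43 without the second, none of them called. Amotl2 lay between 66.7 and 82.8 CPM in ST hearts and between 68.5 and 78.6 CPM in WT hearts. Ajuba (6.84 and 10.2 CPM in ST, 8.58 and 10.3 CPM in WT), Tead1 (151 and 128 CPM in ST, 146 and 137 CPM in WT) and Vgll4 (17.5 and 17.4 CPM in ST, 17.1 and 18.0 CPM in WT) likewise overlapped. Yap1 had 137 and 152 CPM in ST hearts against 169 and 171 CPM in WT hearts, a log2 fold change of -0.24 that was not called (SE 0.127, adjusted p = 0.34).

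The difference between the ST effects at 6 and 2 months was tested as an interaction, in which 10.2% of 12658 genes were higher and 12% lower at 6 months. With scaling by library size alone, the split was 1005 higher and 1893 lower in place of 1294 and 1517. Ccn1 and Tead1 were called higher and Vgll4 lower. The Ccn1 effect was larger at 6 months by 3.08 on the log2 scale (SE 0.198, adjusted p = 5.62e-08, edgeR). For Tead1 the difference was 0.47 (SE 0.141, adjusted p = 0.0236) and for Vgll4 it was -0.58 (SE 0.187, adjusted p = 0.0355). Neither of these held throughout. Without the first WT library of 2 months or the first ST library of 6 months only Ccn1 was called, with adjusted p of 0.11 and 0.0631 for Tead1 and 0.135 and 0.0818 for Vgll4. Tead1 also lost its call without the third WT library of 6 months (0.0538) or the second ST library of 2 months (0.0752), and with scaling by library size alone (0.0606). Vgll4 lost it without the third ST library of 6 months (0.0856), the third WT library of 6 months (0.0868), the second WT library of 2 months (0.0677), or the first (0.0857) or second (0.0523) ST library of 2 months, and with DESeq2 (0.101).

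The corresponding difference for Ccn2 was 1.07 (SE 0.380) with an adjusted p of 0.0549, so the Ccn2 effects at 2 and 6 months were not separated by this test. It was called in 6 of 19 alternatives: with no filter (adjusted p = 3.97e-05), with all 5 groups in one fit (0.0454), in a fit that used the replicate numbers, and without each of 3 libraries. These calls came at 1.69 without the first ST library of 2 months (adjusted p = 0.00737), at 1.47 without the second WT library of 2 months (0.0111) and at 1.21 without the third WT library of 6 months (0.0456). Yap1, at 0.32 (adjusted p = 0.0547), lay as close to the threshold and was called in 5 of 19 alternatives. These were RLE scaling (0.0489), DESeq2 (0.0419), limma-voom (0.0435), all 5 groups in one fit (0.032) and the fit without the second ST library of 2 months (0.39, 0.0209). The fit without that library also called Wwtr1 at -0.46 (0.0465). Lats1 was called at -0.61 without the third WT library of 6 months (0.0351).

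Among ST hearts, Ccn1 was much lower at 8 than at 6 months whereas Ccn2 was at the same mean level, and Amotl2, Tead1, Lats1 and Lats2 were lower too. Of the 10 genes, 1 rose and 5 fell at 8 against 6 months, where 19.1% of 12931 genes rose and 20.5% fell. The split by library size alone was 3072 higher and 2140 lower, in place of 2464 and 2651. Time and table coincide here, and a change that WT hearts would also show between these times cannot be told apart from one of ST hearts alone.

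Ccn1 had 31.5, 39.9 and 47.4 CPM in ST hearts at 8 months, against 108, 150.0 and 128 CPM in ST hearts at 6 months. It fell by 1.70 on the log2 scale (SE 0.138, adjusted p = 1.02e-06, edgeR), with no overlap. Against WT hearts at 6 months it was still higher by 1.06 (SE 0.127, adjusted p = 1.08e-05), and its lowest ST library stood above the highest WT library. Ccn2 had 81.6, 109 and 138 CPM in ST hearts at 8 months, spanning the 94.3 to 131 CPM of ST hearts at 6 months (log2 fold change -0.00, SE 0.156, adjusted p = 0.997). Against WT hearts at 6 months it rose by 1.08 (SE 0.146, adjusted p = 3.26e-05).

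The ratio of Ccn1 to Ccn2 CPM was 0.386, 0.366 and 0.344 in ST hearts at 8 months. It averaged 0.365 ± 0.0208 in ST hearts at 8 months and 1.19 ± 0.156 in ST hearts at 6 months (SD, n = 3 each), which did not overlap (exact permutation p = 0.1, the smallest possible, adjusted p = 0.15). WT hearts at 6 months averaged 0.375 ± 0.0576 (exact permutation p = 0.9). The 8-month ST ratios all lay within the WT range of 0.310 to 0.418.

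**Figure D2:**
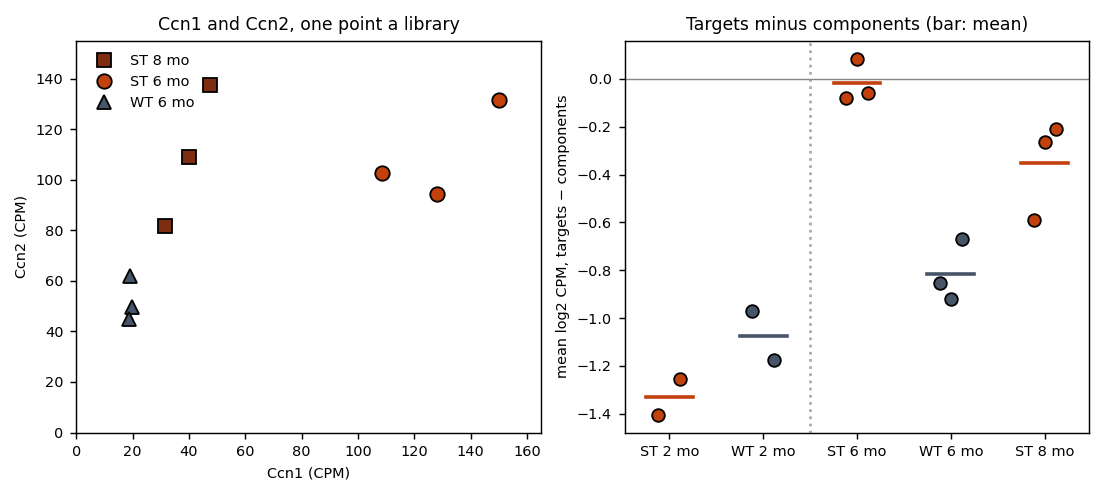
Left, Ccn1 against Ccn2 (CPM, one point a library, 3 libraries a group); right, the mean log2 CPM of the 4 targets minus that of the 6 components in each library, with bars at group means. ST hearts at 6 months stand to the right with 108 to 150.0 CPM of Ccn1, while ST hearts at 8 months reach the same range of Ccn2 with at most 47.4 CPM of Ccn1.

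Amotl2 had 75.3, 76.9 and 73.7 CPM in ST hearts at 8 months, below every library of 6 months. It fell by 0.43 against ST hearts at 6 months (SE 0.0775, adjusted p = 0.000844, edgeR) and by 0.42 against WT hearts at 6 months (SE 0.0713, adjusted p = 0.000287). Ajuba had 14.4, 15.8 and 13.6 CPM, above all libraries of 6 months in both groups, with log2 fold changes of 0.33 against ST (SE 0.134, adjusted p = 0.0651) and 0.19 against WT (SE 0.125, adjusted p = 0.273) that were not called. With scaling by library size alone, Ajuba was called against ST hearts at 0.39 (adjusted p = 0.0349). The 2 scaffold targets thus lay on opposite sides of their 6-month levels, and 1 of them passed the test.

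Tead1 had 267, 282 and 283 CPM in ST hearts at 8 months, below the 353 to 423 CPM of ST hearts at 6 months and overlapping the WT hearts. It fell by 0.49 against ST hearts at 6 months (SE 0.0690, adjusted p = 0.00012, edgeR) and differed by -0.02 from WT hearts at 6 months (SE 0.0633, adjusted p = 0.871). Lats2, at 74.8, 69.9 and 67.0 CPM, lay between the ST and WT hearts of 6 months without touching either. It fell by 0.31 against the ST hearts (SE 0.0707, adjusted p = 0.00383) and rose by 0.26 against the WT hearts (SE 0.0775, adjusted p = 0.0159). Lats1, at 24.1, 18.8 and 21.4 CPM, was below every ST library of 6 months and fell by 0.50 (SE 0.122, adjusted p = 0.00608).

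Vgll4 had 29.4, 24.6 and 24.3 CPM in ST hearts at 8 months, above the 18.8 to 23.3 CPM of ST hearts at 6 months. The rise of 0.35 (SE 0.123, adjusted p = 0.0403, edgeR) was not called with DESeq2 (adjusted p = 0.124) or without any single ST library of 8 months (0.172, 0.0685 and 0.0567 for replicates 1, 2 and 3) or replicate 1 or 3 of 6 months (0.125 and 0.132). Against WT hearts at 6 months Vgll4 was at -0.21 (SE 0.110, adjusted p = 0.152). Yap1 had 218, 207 and 224 CPM and Wwtr1 17.5, 19.0 and 18.0 CPM in ST hearts at 8 months, and neither was called against ST hearts at 6 months.

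Against WT hearts at 6 months, 4 of the 10 genes rose in ST hearts at 8 months (Ccn1, Ccn2, Lats2 and Yap1) and 2 fell (Amotl2 and Lats1), where 17.8% of 13095 genes rose and 16.1% fell. The split by library size alone was 1880 higher and 2856 lower, in place of 2329 and 2112. This comparison shares its ST libraries with the one against 6-month ST hearts and its WT libraries with the 6-month one. The Yap1 rise was 0.18 (SE 0.0630, adjusted p = 0.0322, edgeR) and the Lats1 fall 0.50 (SE 0.148, adjusted p = 0.0158), with 1 WT library of Lats1 inside the ST range. Without the second WT library of 6 months, 3 genes were called (Ccn1, Ccn2 and Amotl2), the adjusted p being 0.0709 for Yap1, 0.085 for Lats1 and 0.0616 for Lats2. Yap1 was also not called without the first (0.0903) or the third (0.105) ST library of 8 months or the third WT library (0.0918), with no filter (0.071) or with all 5 groups in one fit (0.0664), and Lats1 not without the second (0.0884) or the third (0.0624) ST library. Lats2 was not called without the first ST library of 8 months (0.0801) or the third WT library (0.0517), nor, like Yap1, with scaling by library size alone (0.0686 and 0.138).

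**Figure D3:**
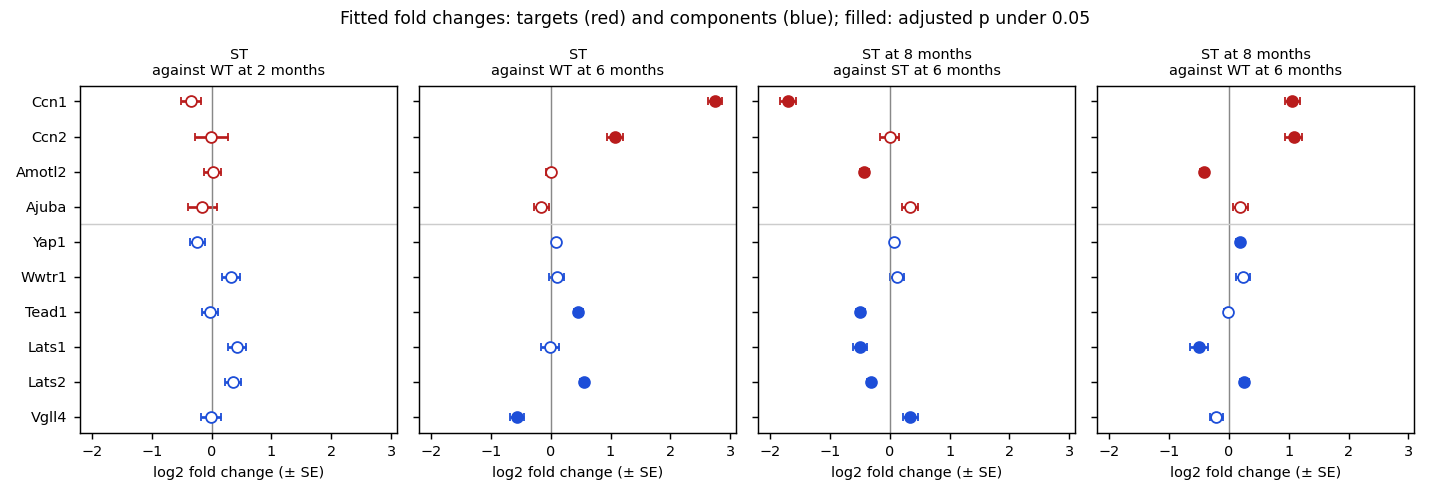
Fitted log2 fold changes (± SE) of the 4 targets (red) and 6 components (blue) in the 4 pairwise comparisons; filled points have an adjusted p under 0.05 in edgeR's test. No point is filled at 2 months; at 6 months Ccn1 lies at 2.75 and Ccn2 at 1.07, while Amotl2 lies at -0.00.

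Set against each other, the mean log2 CPM of the 4 targets minus that of the 6 components was -0.08, 0.09 and -0.06 in ST hearts at 6 months and -0.85, -0.92 and -0.67 in WT hearts, without overlap. The group means differed by 0.80, against a pooled SD of 0.113. The targets' median log2 fold change was 0.53 and the components' 0.10, against -0.00 over all genes. The shift of the targets was that of Ccn1 and Ccn2, since Amotl2 and Ajuba lay at or below 0. At 2 months the same quantity was -1.40 and -1.26 in ST hearts and -0.97 and -1.18 in WT hearts (difference -0.26, pooled SD 0.126). That difference was -0.15 without the first WT library, and -0.038 with Lats2 counted as a target and Ajuba as a component. In ST hearts at 8 months it was -0.59, -0.26 and -0.21, a difference of -0.33 from ST hearts at 6 months (pooled SD 0.159) and of 0.46 from WT hearts at 6 months (pooled SD 0.173). Without the first ST library of 8 months the difference of -0.33 was -0.22. Medians at 8 against 6 months were -0.21 for targets and -0.12 for components, and against WT hearts 0.62 and 0.08.

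Other genes known as YAP and TAZ targets did not move as 1 group with the CCN genes. Of 17 tested at 6 months, 5 rose and 7 fell, with a median log2 fold change of -0.20, where 19.9% of all genes rose and 20.1% fell with a median of -0.00. Those that rose included Ankrd1, a cardiac ankyrin-repeat protein induced by stretch (1.34, SE 0.0882, adjusted p = 3.98e-07, edgeR), the kinase Nuak2 (1.41, SE 0.143, adjusted p = 1.34e-05) and Fjx1 (1.78, SE 0.352, adjusted p = 0.00192). Ankrd1 had 7363, 5610 and 7116 CPM in ST hearts against 2675, 2574 and 2712 CPM in WT hearts at 6 months. Fjx1 had 65 counts over all ST libraries and 19 over all WT libraries of 6 months, so its values rest on few counts. Those that fell included F3, which encodes tissue factor (-0.84), Nt5e, the ecto-enzyme that makes adenosine (-0.73), and Arhgef17 (-0.47).

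At 2 months, 17 of these targets were tested, 0 rose and 2 fell, against 2.7% of all genes higher and 2.1% lower. The 2 were Ankrd1, which fell by 0.95 (SE 0.151, adjusted p = 0.00107, edgeR), and the stress gene Gadd45a, by 0.85 (SE 0.148, adjusted p = 0.00238). Ankrd1 had 1282 and 1004 CPM in ST hearts against 2368 and 2059 CPM in WT hearts, the reverse of its direction at 6 months. At 8 against 6 months in ST hearts, 1 of 17 rose, Gadd45a (1.08), and 7 fell, among them Nuak2 (-1.25), the receptor tyrosine kinase Axl (-1.04), Ankrd1 (-0.44), Ptpn14 (-0.42) and Arhgef17 (-0.27), against 19.1% of all genes higher and 20.5% lower. Against WT hearts at 6 months, 3 of 16 rose and 8 fell in ST hearts at 8 months, with Ankrd1 at 0.91 and F3 at -1.30, against 17.8% of all genes higher and 16.1% lower. The other CCN genes had few counts: of 4 listed, Ccn3 alone passed the filter at 6 months (0.46, SE 0.216, adjusted p = 0.109).

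Among 16 genes of the upstream kinase cassette and its activators, 4 rose and 4 fell at 6 months, beside 19.9% and 20.1% of all genes. Rassf1, a scaffold that promotes MST activity, had 33.9, 31.1 and 37.3 CPM in ST hearts against 12.8, 14.4 and 16.0 CPM in WT hearts (1.24, SE 0.116, adjusted p = 6.98e-06, edgeR). Nf2, which encodes merlin, the membrane activator of LATS, rose by 0.40, and Mob1a, a LATS cofactor, by 0.31. The kinase gene Stk4, which encodes MST1, fell by 0.69, Frmd6 by 0.87 and the atypical cadherin Fat4 by 0.59. Of 4 other TEAD factors and Vestigial-like cofactors tested, only Tead4 was called, with 36.4, 28.1 and 33.5 CPM in ST hearts against 16.2, 13.7 and 15.5 CPM in WT hearts (1.11, SE 0.120, adjusted p = 2.35e-05). Among 4 other angiomotin and Ajuba-family scaffolds Amotl1 rose by 0.31 and Limd1 fell by 0.24.

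**Figure D4:**
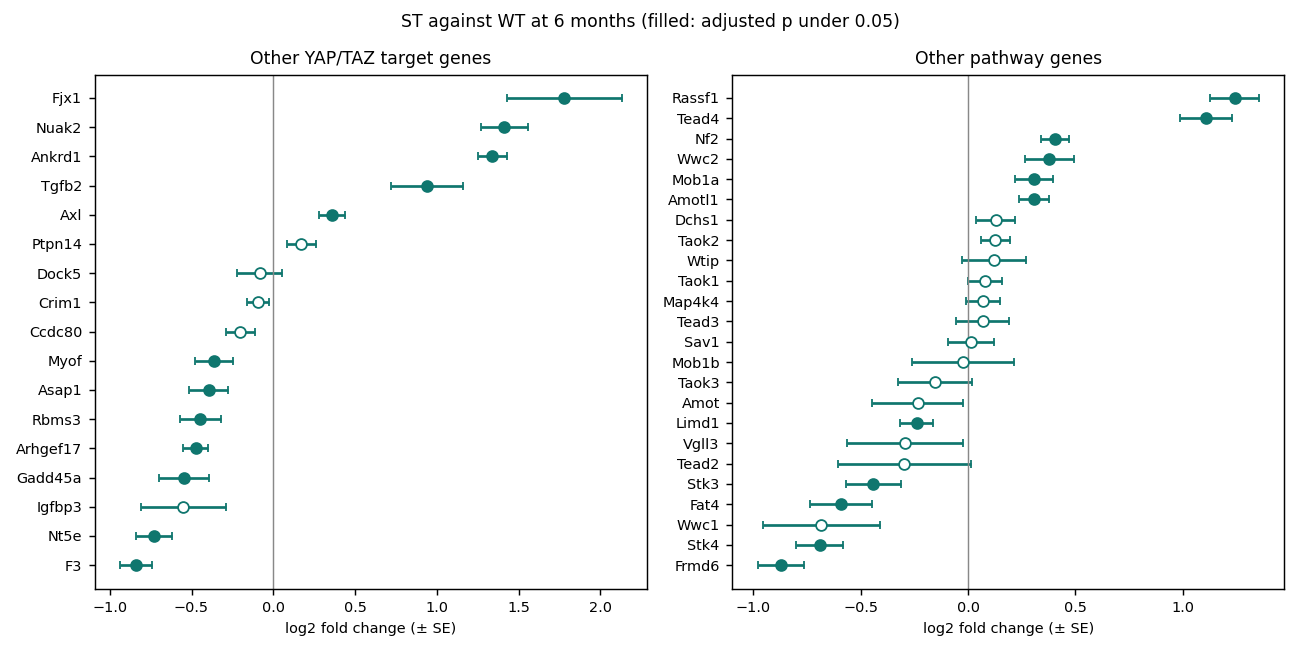
Log2 fold changes (± SE) of ST against WT hearts at 6 months for 17 other YAP and TAZ target genes (left) and 24 other pathway genes (right); filled points have an adjusted p under 0.05 in edgeR's test. Targets run from -0.84 for F3 to 1.78 for Fjx1, with called genes on both sides of 0.

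At 2 months none of these 24 pathway genes was called in edgeR's test, and 4 had an unadjusted p under 0.05, against 18.6% of all genes. At 8 against 6 months in ST hearts, 4 of the 16 cassette genes rose and 4 fell, beside 19.1% and 20.5% of all genes. Rassf1 fell by 1.32, Nf2 by 0.44, Mob1a by 0.41 and Taok2 by 0.26, while Fat4 (0.82) and Frmd6 (0.61) were among those that rose. Tead4 fell by 0.56 (adjusted p = 0.00295), as Tead1 did, and Limd1 rose by 0.70. Against WT hearts at 6 months, 1 cassette gene rose, Map4k4 (0.28), and 4 fell, beside 17.8% and 16.1% of all genes. Tead4 stayed higher by 0.56 (adjusted p = 0.00231), whereas Tead1 was at -0.02.

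Over the 9 libraries of 6 and 8 months, the genes most like Ccn1 by Pearson correlation of log2 CPM, among 11876 genes, were Egr2 and Perm1 (r = 0.995 each), Uck2 (0.993), and Lmcd1 and Ndel1 (0.991 each). Those most like Ccn2 were Hspa9 (0.964), Got1 (0.96), Slc25a5 (0.958), Hprt1 (0.95) and Yipf7 (0.948). Among the 10 genes, Ccn1 ran with Lats2 (r = 0.942) and Tead1 (0.842) and opposite to Vgll4 (-0.879), and with Ccn2 at 0.759. The points are 3 groups of 3 libraries that share tables and scaling, so these values describe mainly the order of the groups.

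Markers of the heart's cell types moved between the same groups, and their part in the values above was not tested. At 6 months, when 19.9% of all genes rose and 20.1% fell, 4 of 8 smooth muscle and pericyte markers were called higher and 0 lower. Those called were Acta2, Tagln, Myh11 and Cnn1, while Rgs5, Pdgfrb, Kcnj8 and Notch3 were not. The 8 summed to 487, 345 and 493 CPM in ST hearts and 366, 276 and 323 CPM in WT hearts, which overlapped. Of 8 fibroblast markers 3 rose and 4 fell (976 to 1039 CPM in ST, 1208 to 1287 CPM in WT), and of 8 endothelial markers 2 rose and 2 fell (1025 to 1142 CPM in ST, 878 to 1095 CPM in WT). Of 8 macrophage markers 1 rose and 1 fell (133 to 187 CPM in ST, 141 to 182 CPM in WT), and 6 of 6 red cell markers rose (709 to 788 CPM in ST, 397 to 533 CPM in WT). Cardiomyocyte markers summed to 77314 to 82734 CPM in ST hearts and 86253 to 92256 CPM in WT hearts, which fits the label of heart tissue. Of these 6 markers 2 rose (Tnnt2 and Actc1, 0.27 each) and 1 fell (Myh6, -0.46). Myh6, the largest part of the sum, averaged 38957 CPM in ST hearts and 53822 CPM in WT hearts. The 6 mesothelial markers summed to 29.4 to 32.8 CPM in ST hearts and 23.3 to 36.3 CPM in WT hearts; in 1 ST library all but Wt1 were at 0, and in WT libraries none was. All 3 mesothelial markers tested were called: Wt1 rose by 0.89 (adjusted p = 6.84e-05, edgeR), while Msln (-3.19, adjusted p = 0.00192) and Upk3b (-2.78, adjusted p = 0.00282) fell. Msln had 2, 12 and 0 counts in ST hearts against 22, 42 and 68 counts in WT hearts, so these 2 falls rest on few counts. The ST hearts of 8 months, set against WT hearts at 6 months, also had Wt1 called higher and Msln and Upk3b lower. In that comparison 17.8% of all genes rose and 16.1% fell. Among 8 endothelial markers 5 rose and 0 fell, and among 8 macrophage markers 0 rose and 4 fell. Among 7 smooth muscle and pericyte markers tested 3 rose and 0 fell, and among 8 fibroblast markers 1 rose and 3 fell. Among 6 cardiomyocyte markers 3 rose and 2 fell, and among 6 red cell markers 2 rose and 0 fell. In ST hearts at 8 months the sums were 615, 345 and 358 CPM for smooth muscle and pericytes and 1153 to 1238 CPM for fibroblasts. They were 1249 to 1321 CPM for endothelium and 105 to 120 CPM for macrophages. Against ST hearts at 6 months, where 19.1% of all genes rose and 20.5% fell, 4 of 8 macrophage markers fell and 0 rose. Of 8 endothelial markers 4 rose and 1 fell, and of 8 fibroblast markers 4 rose and 3 fell. Of 6 cardiomyocyte markers 3 rose and 1 fell, and no smooth muscle, pericyte or red cell marker was called. At 2 months, when 2.7% of all genes rose and 2.1% fell, the smooth muscle and pericyte marker Notch3 fell by 0.61 and no fibroblast, macrophage or cardiomyocyte marker was called. The endothelial marker Esam rose by 0.73 and Kdr fell by 0.57, and the red cell gene Hba-a2 rose by 1.30. Msln (57 and 11 counts in ST, 1 and 1 in WT, adjusted p = 0.00414) and Upk3b (16 and 11 counts in ST, 0 and 1 in WT, adjusted p = 0.0131) were called higher in ST hearts, the opposite of their direction at 6 months. The difference of their ST effects, 6 minus 2 months, was also called (adjusted p = 0.000562 for Msln and 0.000947 for Upk3b).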

How the data were processed

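Bulk RNA of 13 rat heart libraries was measured in 3 tables, of 2, 6 and 8 months. Their values are expected counts as deposited by the authors, mostly whole and not scaled between samples. The sources used here do not name the counting tool. The builds GRCm38 and mm10 are listed per the submitters' processing notes, which the rat gene names go against. Stereo-seq sections were not analysed here.

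Expected counts were rounded. Each comparison used its own libraries, filtered with filterByExpr and scaled by TMM, and the quasi-likelihood test (two-sided) of edgeR 4.0.16 in R 4.3.3, with Benjamini-Hochberg adjustment over all genes tested and a threshold of 0.05. The ST effect at 6 minus 2 months was an interaction term over the 23018 names shared by the tables. All 10 genes passed the filter each time. Standard errors (SE) were derived as |log2 fold change| over the root of F. P-values measure the spread between these samples, which the labels call biological replicates. No pair of replicates agreed within sampling noise. At 6 months the chi-square per degree of freedom between ST replicates 1 and 3 was 1.93. It was 6.89 and 8.67 for the pairs that held ST replicate 2. Between WT replicates 2 and 3 of 6 months it was 2.13, and 8.49 and 7.51 for the pairs that held WT replicate 1. The pairs of ST replicates of 8 months had 2.12 to 2.31. At 2 months it was 12.1 between the ST replicates and 7.68 between the WT replicates. The procedure was tested on simulated data.

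The 10 genes and all lists were chosen with earlier results of these data known. Every one of the 10 is described; of each other list up to 6 called genes per comparison are named, by smallest p. Likeness used log2 CPM with a prior count of 2 and a minimum mean of 1. Ratios were compared by an exact permutation test over libraries. Promoters came from RefSeq's GRCr8 table. Alternatives were other scalings and filters, DESeq2 1.42.0, limma-voom (limma 3.58.1), a replicate block, all groups in one fit, a fit without mitochondrial and haemoglobin genes, and one without each library in turn.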

Additional observations from a re-analysis of the deposited data

Results flagged for a closer look

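The ST effect differed between 6 and 2 months by edgeR's interaction test (adjusted p under 0.05) for 3 of the 10 genes. That test called 10.2% of 12658 genes higher at 6 months and 12% lower. Of 17 other target genes tested it called 3 higher and 5 lower, and of 24 other pathway genes 3 higher and 3 lower. The difference, 6 minus 2 months on the log2 scale, was 3.08 for Ccn1, 0.47 for Tead1 and -0.58 for Vgll4. Among other target genes it was 2.28 for Ankrd1, 1.74 for Fjx1, 1.17 for Nuak2, -0.56 for Ccdc80, -0.58 for Asap1, -0.80 for Nt5e, -0.94 for Myof and -1.54 for F3. Ankrd1 was called at both times with opposite signs, at 1.34 at 6 months and -0.95 at 2 months. Among upstream and scaffold genes the difference was 1.02 for Rassf1, 0.53 for Amotl1, 0.42 for Nf2, -0.63 for Frmd6, -0.78 for Stk4 and -0.80 for Stk3. The tables of the 2 times list different sets of names, and whether that bears on these differences was not tested. Mitochondrial counts were present at 2 months and absent at 6 months. Without mitochondrial and haemoglobin genes, 3 of the 10 genes were still called in the interaction test. Whether a single library is an outlier was not tested in these groups of 2 or 3 libraries.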

How the results depend on the processing

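Depth limits the low genes most: in the smallest library, of 4696160 counts, 3 counts are 0.639 CPM. Groups of 2 at 2 months leave few degrees of freedom. At 6 months, Ccn1, Ccn2, Tead1, Lats2 and Vgll4 kept direction and call in each of 15 alternatives, with Ccn1 between 2.63 and 2.86. So did Ccn1, Amotl2, Tead1, Lats1 and Lats2 at 8 against 6 months, Ccn1, Ccn2 and Amotl2 against WT at 6 months, and Ccn1 in each of 19 for the 6 minus 2 month difference. The cause of the changes below was not tested.

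At 2 months, 582 genes were called, 1019 with no filter, 359 with DESeq2, 1237 with all 5 groups in one fit and 271 to 2013 when leaving out 1 library; of the 10 genes 0 were called, 1 with all 5 groups in one fit and 0 to 3 when leaving out 1 library. For ST at 8 against WT at 6 months, 4441 genes were called and 3521 to 4390 when leaving out 1 library. Of the 10 genes, 6 were called there and 3 to 6 when leaving out 1 library. For the 6 minus 2 month difference 3 were called, 5 with all 5 groups in one fit and 1 to 3 when leaving out 1 library, and all genes called went from 2811 to between 1558 and 3197. With Lats2 counted as a target and Ajuba as a component, targets minus components differed by -0.038 at 2 months, 1.09 at 6 months and -0.60 at 8 against 6 months, in place of -0.26, 0.80 and -0.33.

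Signs turned for uncalled genes near 0. At 2 months these were Ccn2 (0.00126 with no filter), Vgll4 (0.0026 with no filter, 0.00331 with all groups in one fit) and, when leaving out 1 library, Ccn2 (-0.63 to 0.61), Amotl2 (-0.14 to 0.17), Tead1 (-0.15 to 0.0902), Ajuba (-0.45 to 0.12) and Vgll4 (-0.043 to 0.023). At 6 months they were Amotl2 (0.00155 with RLE, 0.0103 with no filter, 0.00145 with DESeq2), Lats1 (0.00364 with no filter, 0.00991 with limma-voom), Yap1 (-0.018) and Wwtr1 (-0.016) by library size alone, and, leaving out 1 library, Amotl2 (-0.073 to 0.045) and Lats1 (-0.18 to 0.13). Later they were Ccn2 at 8 against 6 months (0.059 by library size alone, 0.00822 with a 5 CPM filter, -0.20 to 0.16 leaving out 1 library) and Tead1 against WT (-0.044 to 0.012). For the 6 minus 2 month difference they were Ajuba (0.0124 with limma-voom, -0.29 to 0.28), Amotl2 (-0.19 to 0.12) and Wwtr1 (-0.46 to 0.011).

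Replicate numbers were not used as pairs in the main fits, and whether they pair the libraries is not settled. The correlations of same-numbered libraries' deviations were positive in all 4 pairwise comparisons, but small. They were 0.0712 at 2 months, and 0.0297, 0.111 and 0.0039 at 6 months. For ST at 8 against 6 months they were 0.0546, 0.178 and 0.0378, and against WT at 6 months 0.0404, 0.0351 and 0.0262. With 2 libraries a group at 2 months, all correlations there have the same size, so they cannot decide. Of the 3 comparisons with 3 libraries a group, every library correlated best with its own number only in the last. With the replicate block, 0, 5, 6, 6 and 4 of the 10 genes were called in the order 2 months, 6 months, 8 against 6, 8 against WT and the difference. Over all genes tested the calls in that order were 636 of 12121, 5435 of 13253, 5427 of 12931, 4652 of 13095 and 2941 of 12658. Under the block the 6 minus 2 month difference of Ccn2 was 1.05 (adjusted p = 0.00174), Ccn2 at 2 months was 0.000153 and the Ajuba difference 0.0027.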
